A study of Mus musculus with 36 samples.

Results

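The 10 genes described here encode the MHC class I antigen presentation route of the mouse: the heavy chains H2-K1, H2-D1, H2-Q2 and H2-Q10, the light chain B2m, the peptide transporter subunits Tap1 and Tap2, the loading chaperone Tapbp (tapasin), the immunoproteasome subunit Psmb8 and the transcriptional activator Nlrc5. They were chosen by name, with earlier results of these data known, and all 10 were found among the 21650 genes of the deposited expression table. RNA-seq was performed on total RNA of 36 samples in 12 groups of 3. 4T1 tumors had grown in mammary glands of BALB/c mice and Py230 tumors in glands of C57BL/6 mice, and glands of each strain inoculated with Matrigel alone served as controls, all taken at 1, 3 and 6 weeks post-inoculation (w p.i.). 4T1 is a luciferase-expressing metastatic BALB/c mammary tumor cell line, and Py230 is a C57BL/6 mammary tumor line from the MMTV-PyMT model, in which a transgene drives an oncogene in mammary epithelium. All mice were females that had been lactating until weaning, inoculated through the teat of the third gland with tumor cells in a mix of PBS and Matrigel or with Matrigel. Each tumor type is 1 cell line in 1 strain, so line and strain cannot be told apart between the tumors, and the Matrigel glands give the strain difference without tumor cells.

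MHC class I molecules display peptides from inside the cell to CD8+ T-cells and are recognized by natural killer cells. Peptides are cut by the proteasome, carried into the endoplasmic reticulum by TAP, and fitted into the groove of a heavy chain that is bound to beta-2 microglobulin, with tapasin holding the empty molecule at the transporter. Interferon-γ raises most of these genes together, partly through NLRC5, which has no DNA binding domain of its own and acts with RFX, CREB and NF-Y proteins at the promoters of class I genes. Tumor cells often lower this route, which lets them escape CD8+ T-cells. Of the heavy chains described here, H2-K1 and H2-D1 are classical, whereas H2-Q2 and H2-Q10 belong to the Q region. H2-Q10 is known as a secreted class I molecule made mainly by the liver.

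In the mm10 genome, 8 of the 10 genes lie on chromosome 17, within or beside the MHC, and all 10 are annotated as protein coding (GENCODE vM21). From the first to the last on that chromosome they are Tapbp (chr17:33915899-33929292, plus strand), H2-K1 (chr17:33996017-34000347, minus strand), Tap1 (chr17:34187553-34197225, plus), Psmb8 (chr17:34197721-34201454, plus), Tap2 (chr17:34203527-34216321, plus), H2-D1 (chr17:35262730-35267499, plus), H2-Q2 (chr17:35342242-35346762, plus) and H2-Q10 (chr17:35470089-35474563, plus). B2m lies on chromosome 2 (chr2:122147686-122153083, plus) and Nlrc5 on chromosome 8 (chr8:94434356-94527272, plus). By the authors' mean normalized count over all libraries per kilobase of exon, B2m was the most abundant of them with 31400, above H2-D1 with 12864 and H2-K1 with 7763. Tapbp followed with 1256, Psmb8 with 485 and Tap2 with 361. H2-Q2, Tap1 and H2-Q10 lay close together with 341, 327 and 319, and the regulator Nlrc5 was lowest with 108. Thus the transcripts of the light chain and of the classical heavy chains stood far above those of the Q-region heavy chains and of the loading machinery.

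Promoter sequences are shown for 4 genes, the heavy chains H2-K1, H2-Q2 and H2-Q10 and the light chain B2m. The heavy chain H2-D1 is not shown, because the 250 bases before its RefSeq start lie in annotated exons. The sequences come from RefSeq (GRCm38.p6), in which 8 of the 10 genes had an entry. Each stretch of 150 bases runs 5′ to 3′ on the strand of the gene, and capitals mark matches to the motifs that were searched on both strands in the 250 bases before the start. For H2-K1 (chr17:34000348-34000497, minus strand) and H2-Q10 (chr17:35469939-35470088, plus) it ends 1 base before the RefSeq start, for B2m (chr2:122147536-122147685, plus) 2 bases before it and for H2-Q2 (chr17:35342092-35342241, plus) 66 bases before it, where the annotated first exon of H2-Q2 begins.
H2-K1: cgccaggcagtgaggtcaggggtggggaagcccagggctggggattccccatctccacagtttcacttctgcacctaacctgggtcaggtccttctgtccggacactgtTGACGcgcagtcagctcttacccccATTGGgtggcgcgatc
H2-Q2: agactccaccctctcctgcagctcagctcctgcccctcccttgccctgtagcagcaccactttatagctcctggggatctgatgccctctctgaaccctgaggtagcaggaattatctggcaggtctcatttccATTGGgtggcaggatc
H2-Q10: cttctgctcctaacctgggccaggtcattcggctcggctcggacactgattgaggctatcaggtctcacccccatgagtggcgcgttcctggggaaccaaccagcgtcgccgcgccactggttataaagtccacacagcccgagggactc
B2m: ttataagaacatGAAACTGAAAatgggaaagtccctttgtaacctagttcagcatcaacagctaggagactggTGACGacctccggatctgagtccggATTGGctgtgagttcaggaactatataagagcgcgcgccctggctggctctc

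The motifs were the core of an interferon response element (GAAA, any 2 bases, GAAA), CCAAT (the Y box core, bound by NF-Y, which reads ATTGG where it lies on the other strand) and TGACG (the X2 core, bound by CREB family proteins). Of 32851 RefSeq promoters, 2.98% held the first, 33.8% the Y box core, 17.8% the X2 core and 6.12% both of the latter. H2-K1 held the X2 core at bases 41 to 37 before its start and the Y box core at bases 16 to 12. B2m held the X2 core at bases 78 to 74, the Y box core at bases 53 to 49 and the interferon element at bases 139 to 130. B2m was the only gene of the 8 with a match to the interferon string in this window. Only this exact string was searched, so other forms of such an element were not counted in any gene. H2-Q2 held the Y box core alone, at bases 81 to 77, and H2-Q10 held none of the 3 motifs. H2-D1 and Tap1 each held both CCAAT and TGACG, Tapbp held CCAAT alone and Psmb8 none. In H2-D1, Tap1, Tapbp and Psmb8, however, all bases of this window lay in annotated exons. For H2-D1, Tapbp and Psmb8 the window lay within the annotated gene itself, so these windows need not be their promoters. Matches are letters in these windows of the C57BL/6-based reference, and no reads on binding or on BALB/c promoters were analysed here. Tap2 and Nlrc5 were not searched.

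The deposited values are standardized scores. They are centred on 0 and scaled to an SD of 1 in every library, so 1 score unit is the SD between the genes of a library, and over 19073 genes log2 of the authors' mean normalized count rose by 2.82 per score unit. Differences are given in score units with the standard error of a limma fit over all 36 libraries, and a gene passed the test when its adjusted p (Benjamini-Hochberg over 21650 genes) was below 0.05. The labels do not say whether the 3 libraries of a group came from separate mice, so p-values measure the spread between libraries. An exact permutation test of 3 against 3 libraries cannot go below 0.1 and was not used. Correlations between libraries of 1 group were 0.947 or higher. The mean score of 6 epithelial markers lay between 1.14 and 1.84 in the 36 libraries. The 6 adipocyte markers, which lay between 1.66 and 2.23 in the gland libraries, averaged -0.10 in 4T1 and 0.40 in Py230 tumors at 6 w p.i. In bulk tissue, fewer cells of a type and less RNA per cell cannot be told apart.

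The comparison of the Matrigel glands asks how far the strains differ without tumor cells. Averaged over the 3 time points, 4 of the 10 genes differed between BALB/c and C57BL/6 glands, beside 11% of all genes. H2-Q2 was higher in BALB/c glands, while Nlrc5, B2m and H2-K1 were lower. The other 6 genes did not pass the test.

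H2-Q2 showed the widest gap. Its scores in BALB/c glands were 0.85, 0.69 and 0.88 at 1 w p.i., 0.90, 0.86 and 0.84 at 3 w p.i., and 0.89, 0.71 and 0.86 at 6 w p.i. In C57BL/6 glands they were -0.27, -0.34 and -0.24 at 1 w p.i., -0.09, -0.08 and -0.02 at 3 w p.i., and 0.21, 0.05 and 0.02 at 6 w p.i. Every BALB/c gland thus lay far above every C57BL/6 gland, and the BALB/c values were flat over time while the C57BL/6 values moved upward. The mean difference was 0.92 (SE 0.042, n = 9 per strain, adjusted p = 1.30e-15 by limma), at percentile 99.9 of the differences of all genes. It passed the test in all 26 alternative fits, with differences between 0.85 and 0.94.

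Nlrc5, the activator of class I promoters, differed the other way. The 9 BALB/c glands ranged from 0.36 to 0.57 with a median of 0.48, and the 9 C57BL/6 glands from 0.64 to 1.04 with a median of 0.78, so the strains did not overlap. The difference was -0.35 (SE 0.067, adjusted p = 0.000430 by limma) and passed the test in all 26 alternatives. H2-Q2 and Nlrc5 were the 2 genes of the 10 whose glands did not overlap between strains, which was the case for 2.77% of all genes.

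B2m, the light chain shared by all classical class I molecules, ranged from 2.26 to 2.46 (median 2.39) in BALB/c glands and from 2.46 to 2.70 (median 2.55) in C57BL/6 glands. The ranges touched without separating, and the difference of -0.21 (SE 0.042, adjusted p = 0.000993 by limma) held in all 26 alternatives. H2-K1 ranged from 2.14 to 2.37 (median 2.29) in BALB/c and from 2.32 to 2.55 (median 2.43) in C57BL/6 glands, with some overlap. Its difference was -0.15 (SE 0.045, adjusted p = 0.0253 by limma), and the call was lost in 7 of 26 alternatives, which were quantile and cyclic loess scaling and the fits without BALB/c week 1 replicate 2, BALB/c week 6 replicate 2, C57BL/6 week 1 replicate 1, C57BL/6 week 3 replicate 3 or C57BL/6 week 6 replicate 2. The other classical heavy chain described here, H2-D1, differed by -0.06 (95% interval -0.14 to 0.03) and did not pass the test.

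Among the loading genes, the difference between strains was -0.21 for Tap1 (adjusted p = 0.0667), 0.01 for Tap2, -0.06 for Tapbp and -0.06 for Psmb8 (limma), none of which passed the test. H2-Q10 differed by 0.02, with a wide interval from -0.25 to 0.29. Leukocyte markers moved with the strain to a small degree: of 5 markers, 2 were lower in BALB/c glands, and group means were 0.88 to 0.99 in BALB/c and 1.05 to 1.28 in C57BL/6 glands. Of 5 markers of lactating epithelium 4 were higher in BALB/c glands, with group means of 1.23 to 1.99 against 0.97 to 1.43, whereas 0 of 6 epithelial markers passed the test by limma. The part of these cells in the strain difference was not tested.

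**Figure D1:**
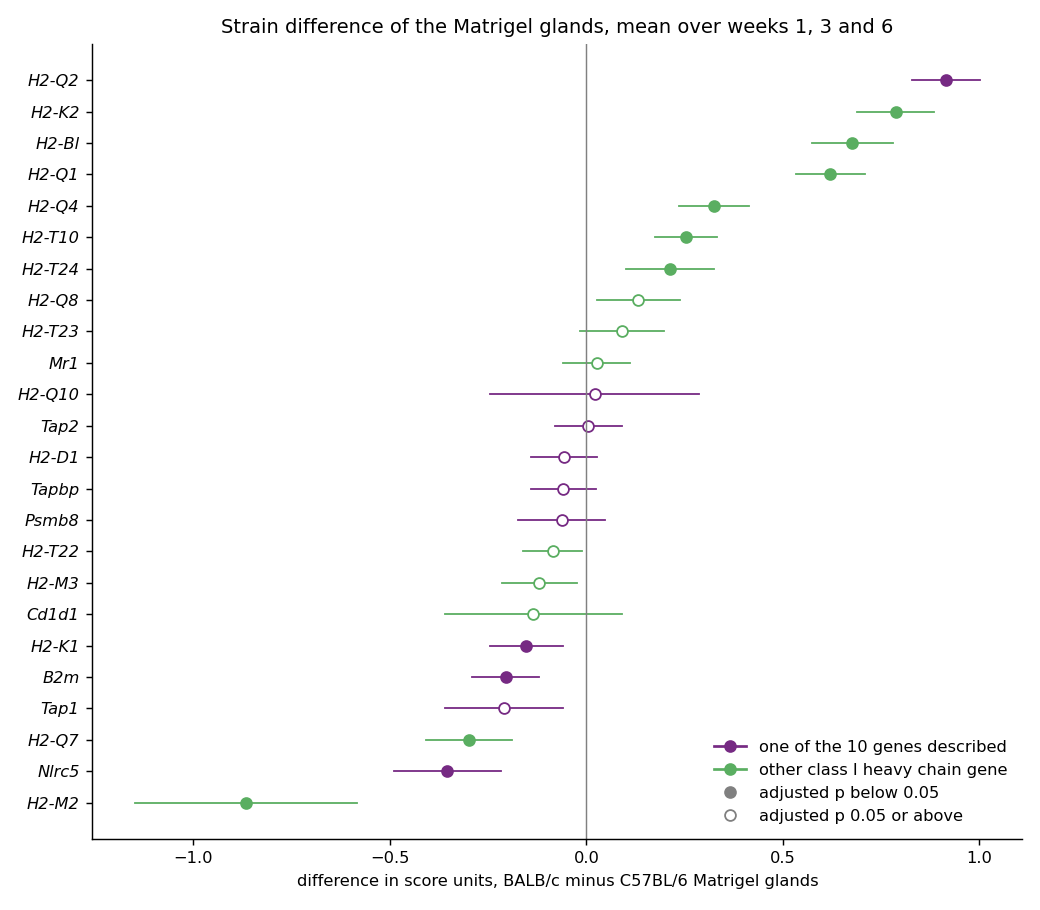
Difference between BALB/c and C57BL/6 Matrigel glands, as the mean over 3 time points, for the 10 genes described (purple) and 14 other class I heavy chain genes (green). The x axis is in score units, bars are 95% confidence intervals, and filled points have an adjusted p below 0.05. H2-Q2 stands at 0.92 at the upper end, with H2-K2, H2-Bl and H2-Q1 next to it, and Nlrc5 stands at -0.35.

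The other class I heavy chain genes of the table, a list that includes the class I-like genes Mr1 and Cd1d1, also differed between the glands. Of 14, 6 were higher in BALB/c and 2 lower, beside 5.5% and 5.49% of all genes, with a median difference of 0.11 beside 0.01 over all genes. H2-K2 was higher by 0.79 (SE 0.048), H2-Bl by 0.68 (SE 0.050) and H2-Q1 by 0.62 (SE 0.042), whereas the differences of H2-M2 and H2-Q7 were -0.87 (SE 0.14) and -0.30 (SE 0.054). None of these 5 genes overlapped between the strains.

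Sequence similarity bears on how reads of these genes can be counted. Of 2107 windows of 75 bases in the annotated transcripts of H2-Q2, 8.07% occur identically in another gene, all 170 of them in H2-Q1. For H2-Q10 it was 12.5% of 4586 windows, most of them shared with H2-Q7 (416), for H2-D1 5.40% and for H2-K1 3.10%. Tapbp shared 1.10% of its windows, and B2m, Tap1, Tap2, Nlrc5 and Psmb8 shared 0 windows with any other gene. Reads of both strains were mapped to mm10, which is built from C57BL/6, and the classical class I heavy chains are among the most polymorphic genes. How far the other heavy chain genes differ in sequence between the strains was not examined. The values of the 4 heavy chains, and of the other class I heavy chain genes, are taken as uncertain in BALB/c libraries. The effect of the reference on their differences, among them that of H2-Q2, was not tested.

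The comparison of 4T1 with Py230 tumors asks how the tumor types differed at each time point. All 10 genes had higher means in 4T1 tumors in weeks 1 and 3, and 7 of 10 at 6 w p.i. The heavy chains H2-D1, H2-Q2 and H2-Q10 passed the test at each time point, whereas the light chain, the transporter, tapasin and Nlrc5 did not pass it at any. At 1 w p.i., 4 of the 10 genes were higher in 4T1 tumors, beside 11% of all genes that were higher and 19.4% that passed in either direction. In week 3 it was 3 of 10, beside 11.9% higher and 30.3% in either direction, and at 6 w p.i. 3 of 10, beside 24.1% and 40.8%.

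H2-D1 scores in 4T1 tumors were 2.86, 2.78 and 2.74 at 1 w p.i., 3.01, 2.67 and 2.83 at 3 w p.i., and 2.79, 2.73 and 2.71 at 6 w p.i. In Py230 tumors they were 2.45, 2.60 and 2.56, then 2.44, 2.50 and 2.52, then 2.51, 2.37 and 2.61. The lowest 4T1 tumor exceeded the highest Py230 tumor over all time points. The difference was 0.26 (SE 0.071, adjusted p = 0.0126) at 1 w p.i., 0.35 (adjusted p = 0.000517) at 3 w p.i. and 0.25 (adjusted p = 0.00626) at 6 w p.i. by limma. The call was lost in 3 of 14 alternatives at 1 w p.i. (the 6 tumors alone, without 4T1 replicate 1, without Py230 replicate 1), in 2 at 3 w p.i. (the 6 tumors alone, quantile scaling) and in 3 at 6 w p.i. (median scaling, loess scaling, without Py230 replicate 2).

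H2-K1 did not separate the tumors in the same way. Its 9 4T1 tumors ranged from 2.41 to 2.77 and its 9 Py230 tumors from 2.28 to 2.66. The differences fell short of the test, with 0.19 (adjusted p = 0.0799), 0.15 (adjusted p = 0.146) and 0.03 (adjusted p = 0.785) in weeks 1, 3 and 6 by limma.

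H2-Q2 scores in 4T1 tumors were 1.19, 1.07 and 1.03 at 1 w p.i., 1.34, 0.96 and 1.15 at 3 w p.i., and 1.26, 1.16 and 1.13 at 6 w p.i. In Py230 tumors they were -0.16, -0.17 and -0.33, then -0.18, -0.12 and -0.16, then 0.11, 0.02 and 0.19. All 4T1 tumors lay far above all Py230 tumors. The differences of 1.31 (adjusted p = 2.86e-13), 1.31 (adjusted p = 2.74e-13) and 1.08 (adjusted p = 5.00e-12) in weeks 1, 3 and 6 (limma, SE 0.073 each) passed the test in all 14 alternatives. In the order of the 12 group means, the 4T1 tumors came first, the BALB/c glands next, and all C57BL/6 and Py230 groups last, and the ranges of neighbours were apart at both of these steps.

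H2-Q10 was even in 4T1 tumors, with 1.27, 1.22 and 1.25 at 1 w p.i., 1.50, 1.16 and 1.33 at 3 w p.i., and 1.35, 1.38 and 1.30 at 6 w p.i. In Py230 tumors it varied widely, with 0.20, 0.84 and 0.52 at 1 w p.i., -0.20, 0.92 and 1.16 at 3 w p.i., and -0.12, -0.22 and 0.10 at 6 w p.i. No Py230 tumor reached the 4T1 tumors of its week, although the highest at 3 w p.i. nearly matched the lowest 4T1 tumor. The difference was 0.73 (SE 0.23, adjusted p = 0.0237) at 1 w p.i., 0.71 (adjusted p = 0.0189) at 3 w p.i. and 1.43 (adjusted p = 1.05e-05) at 6 w p.i. by limma. The last held in all 14 alternatives, with values from 1.25 to 1.52. At 3 w p.i. the call was lost in a fit of the 6 tumors alone, without replicate 1 of 4T1, or without replicate 1 of Py230, the last giving 0.29, and at 1 w p.i. without replicate 1 or 3 of either tumor, with values down to 0.57.

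The low Py230 value at 3 w p.i. came from replicate 1, which also stood apart in markers of several tissues. The mean score of adipocyte markers was 0.40 in that library and 1.72 and 1.98 in the other 2 of its group. Skeletal muscle markers averaged -0.66 there, beside 0.82 and 2.41, and fibroblast markers 1.71, beside 2.01 and 2.14. T and NK cell markers were higher there, with -0.06 beside -0.25 and -0.57. At 6 w p.i., Py230 tumors with H2-Q10 scores of -0.12, -0.22 and 0.10 had adipocyte means of -0.01, 0.17 and 1.03. In 4T1 tumors at 6 w p.i. adipocyte means were as low, from -0.19 to 0.07, beside H2-Q10 scores of 1.30 to 1.38. The part of adipose tissue and of the other tissues in the H2-Q10 values was not tested. Of the hepatocyte markers, 3 were in the table, and their mean score stayed between -1.17 and 0.01 in all 36 libraries.

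Psmb8, which replaces a constitutive subunit in the immunoproteasome, was the only loading or regulatory gene of the 10 that passed the test between the tumors. Its scores at 1 w p.i. were 1.39, 1.25 and 1.38 in 4T1 and 0.85, 1.05 and 1.01 in Py230 tumors, without overlap. The difference of 0.37 (SE 0.093, adjusted p = 0.00740 by limma) was lost only without Py230 replicate 1, among 14 alternatives. At 3 w p.i. it was 0.13 and at 6 w p.i. -0.01, neither of which passed the test. For B2m, Tap1, Tap2, Tapbp and Nlrc5 differences ranged from 0.10 to 0.28 at 1 w p.i., from 0.02 to 0.14 at 3 w p.i. and from -0.07 to 0.10 at 6 w p.i. At 1 w p.i. all 5 leukocyte markers were higher in 4T1 tumors, with group means of 1.68 in 4T1 and 1.17 in Py230 tumors, and at 6 w p.i. 0 of 5 passed the test, with means of 1.31 and 1.24. T and NK cell markers went the same way at 1 w p.i., with 6 of 9 higher in 4T1 tumors, and at 6 w p.i. 0 were higher and 1 lower. The part of immune cells in the Psmb8 values was not tested.

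**Figure D2:**
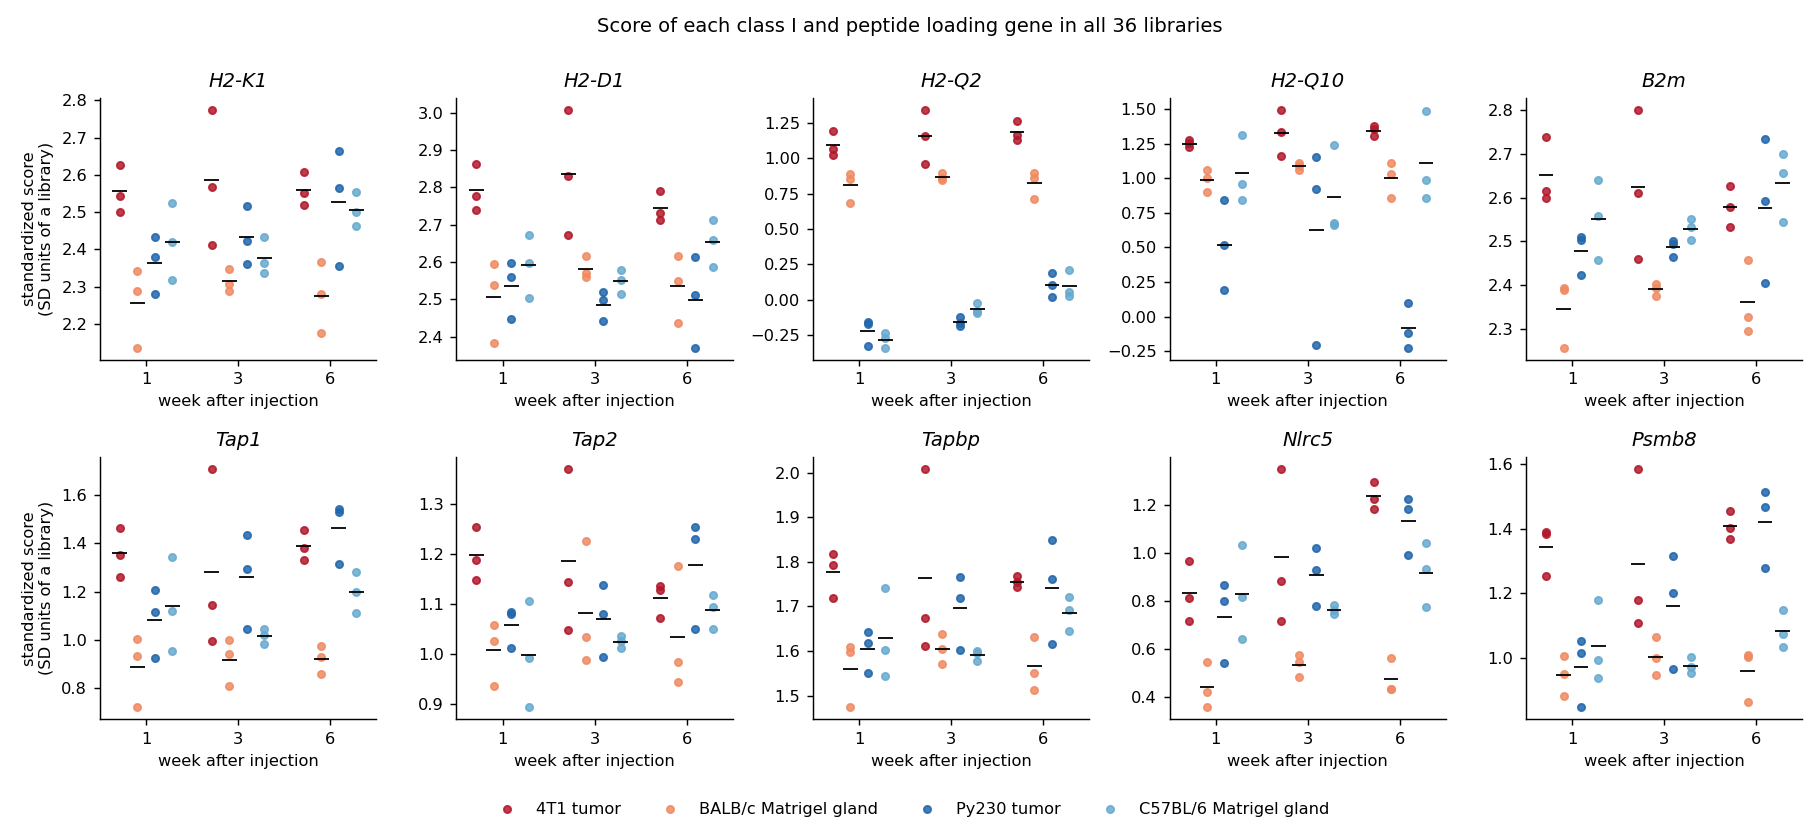
Score of each of the 10 genes in all 36 libraries by week after injection. Each point is 1 library, colors give the tumor or gland, black bars are group means of 3, and the y axes differ between genes and do not start at 0. H2-Q2 separates BALB/c samples (red and orange) from C57BL/6 samples (blue), H2-Q10 drops to -0.08 on average in Py230 tumors at 6 w p.i., and Nlrc5 is lowest in the BALB/c glands.

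Comparing each tumor with the Matrigel glands of its strain asks how the tumors stood apart from glands without tumor cells at the same time point. 4T1 tumors were higher than BALB/c glands for the same 8 genes at 1 and at 6 w p.i.: H2-K1, H2-D1, H2-Q2, B2m, Tap1, Tapbp, Nlrc5 and Psmb8. At 1 w p.i. this stood beside 9.91% of all genes that were higher (16.6% in either direction), and at 6 w p.i. beside 38.6% (60.1% in either direction). At 3 w p.i., 3 of the 10 genes were higher, beside 2.1% of all genes (3.25% in either direction). The median difference over the 10 genes was 0.29, 0.26 and 0.31 in weeks 1, 3 and 6, beside -0.01, -0.01 and 0.07 over all genes.

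Nlrc5 gave the largest of these differences at 6 w p.i. Its scores in 4T1 tumors were 0.97, 0.72 and 0.81 at 1 w p.i., 1.35, 0.72 and 0.88 at 3 w p.i., and 1.23, 1.30 and 1.18 at 6 w p.i. In BALB/c glands they were 0.42, 0.36 and 0.55, then 0.54, 0.48 and 0.57, then 0.56, 0.43 and 0.43. All 4T1 tumors exceeded all BALB/c glands. The difference was 0.39 (SE 0.12, adjusted p = 0.0251), 0.45 (adjusted p = 0.0374) and 0.76 (adjusted p = 4.39e-06) in weeks 1, 3 and 6 by limma, and the last held in all 14 alternatives.

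Tap1, the subunit that forms the peptide transporter together with Tap2, scored 1.46, 1.26 and 1.35 in 4T1 tumors and 0.93, 0.72 and 1.00 in BALB/c glands at 1 w p.i. At 6 w p.i. the scores were 1.45, 1.38 and 1.33 in tumors and 0.98, 0.86 and 0.93 in glands. Tumors were above glands in both weeks, by 0.47 (SE 0.13, adjusted p = 0.0155) and 0.47 (adjusted p = 0.00262, limma). Tap2 differed by 0.19, 0.10 and 0.08 in weeks 1, 3 and 6 and did not pass the test at any time. Whether Tap1 and Tap2 differed from each other in their response was not tested.

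Psmb8 was higher in 4T1 tumors by 0.40 (SE 0.093, adjusted p = 0.00879) at 1 w p.i. and by 0.45 (adjusted p = 0.000197) at 6 w p.i. by limma. Tapbp was higher by 0.22 (SE 0.070, adjusted p = 0.0377) and 0.19 (adjusted p = 0.0224), and at 6 w p.i. its call was lost in 6 of 14 alternatives (scaling by the median and the median absolute deviation (MAD), quantile or loess scaling, and without 4T1 replicate 1 or BALB/c gland replicate 2 or 3). B2m was higher by 0.30 (SE 0.073, adjusted p = 0.00925) and 0.22 (adjusted p = 0.0115), with scores of 2.53 to 2.63 in tumors and 2.30 to 2.46 in glands at 6 w p.i.

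Of the heavy chains, H2-K1, H2-D1 and H2-Q2 were higher in 4T1 tumors. H2-K1 was higher in 4T1 tumors than in BALB/c glands by 0.30 (SE 0.078, adjusted p = 0.0132) at 1 w p.i. and 0.29 (adjusted p = 0.00283) at 6 w p.i., and its 9 tumors, from 2.41 to 2.77, lay above its 9 glands, from 2.14 to 2.37. H2-D1 was higher by 0.29 (SE 0.071, adjusted p = 0.0103) and 0.21 (adjusted p = 0.0124) by limma. H2-Q2 was higher by 0.29 (SE 0.073, adjusted p = 0.0121) and 0.36 (adjusted p = 0.000138). H2-Q10 differed by 0.26, 0.24 and 0.34 in weeks 1, 3 and 6, with intervals that included 0, although its tumors and glands did not overlap in any week. The pooled fit takes in the wide spread of H2-Q10 in C57BL/6 libraries given further on, and in a fit of the 6 compared libraries alone H2-Q10 passed at 6 w p.i. (adjusted p = 0.00337 by limma) but not in weeks 1 and 3. With MAD scaling, the differences at 6 w p.i. were 0.07 for H2-K1, -0.01 for H2-D1, 0.01 for B2m and 0.06 for Tapbp, and none of these 4 passed the test, whereas Nlrc5, Tap1, Psmb8 and H2-Q2 did.

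These calls were less secure at the earlier time points. At 1 w p.i., 0 of the 10 genes passed the test without 4T1 replicate 1, without 4T1 replicate 3, without BALB/c gland replicate 2 or in a fit of these 6 libraries alone, and the share of all genes that passed fell with them, to as little as 0.148% without 1 library. The differences themselves kept their direction. In week 3, H2-D1, H2-Q2 and Nlrc5 passed the test with adjusted p of 0.0466, 0.0347 and 0.0374 (limma), and 0 genes did without 4T1 replicate 1 or without any 1 of the BALB/c gland libraries, whereas 7 did without 4T1 replicate 2 and 6 without 4T1 replicate 3. Without BALB/c gland replicate 1, Nlrc5 and Tapbp lost their calls at 1 w p.i. In week 6, 5 genes passed without BALB/c gland replicate 2, with H2-D1, B2m and Tapbp lost.

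4T1 replicate 1 at 3 w p.i. was the highest of the 36 libraries for all 10 genes, among them H2-K1 (2.77), B2m (2.80), Tap1 (1.71), Tap2 (1.37) and Psmb8 (1.58). In the same library the mean of 5 leukocyte markers was 1.81, beside 1.26 and 1.24 in the other 2 of its group, and the mean of 9 T and NK cell markers was 0.55, beside -0.37 and 0.02. Its adipocyte mean was 0.70, beside 1.97 and 2.14. All 5 leukocyte markers were higher in 4T1 tumors than in BALB/c glands at 1 w p.i., 1 of 5 at 3 w p.i. and 4 of 5 at 6 w p.i., with means of 1.68, 1.44 and 1.31 in tumors and 0.99, 0.97 and 0.88 in glands. T and NK cell markers were higher for 7, 7 and 6 of 9 (1 was lower in week 6), and neutrophil markers for 2, 3 and 5 of 5, with neutrophil means of 0.26 in tumors and -1.17 in glands at 6 w p.i. In that week all 6 adipocyte markers and 4 of 5 markers of lactating epithelium were lower in the tumors, the latter with means of -0.68 in tumors and 1.23 in glands. All 5 skeletal muscle markers were lower as well, with means of -0.09 in tumors and 2.66 in glands. In week 1 muscle markers set single libraries apart, with means of -0.49, 2.18 and 1.17 in 4T1 tumors and 1.87, 2.82 and -0.19 in BALB/c glands. The part of these cells in the class I differences was not tested.

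Few of the 10 genes passed the test between Py230 tumors and C57BL/6 glands. At 1 w p.i. 0 genes passed the test by limma (1 at an unadjusted p under 0.05), beside 0.00924% of all genes, and at 3 w p.i. 0 did (0 at an unadjusted p under 0.05), beside 19.7% of all genes. In week 6, 2 did, beside 47.6% of all genes: Psmb8 was higher and H2-Q10 lower in the tumors. With weights estimated for each library, 4 genes passed at 3 w p.i. and 6 at 6 w p.i., beside 60.1% and 68.3% of all genes, so these counts too lay below the share of all genes.

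Psmb8 scores at 6 w p.i. were 1.47, 1.28 and 1.51 in Py230 tumors and 1.03, 1.15 and 1.07 in C57BL/6 glands, and every tumor exceeded every gland. The difference was 0.34 (SE 0.093, adjusted p = 0.00433 by limma). H2-Q10 scores in C57BL/6 glands were 0.84, 1.31 and 0.96 at 1 w p.i., 1.24, 0.66 and 0.67 at 3 w p.i., and 0.86, 1.49 and 0.99 at 6 w p.i., all above the 3 Py230 tumors of 6 w p.i. The difference at 6 w p.i. was -1.19 (SE 0.23, adjusted p = 0.000118 by limma), and both calls held in all 14 alternatives. Tap1 and Nlrc5 differed by 0.27 (adjusted p = 0.0861) and 0.22 (adjusted p = 0.127) at 6 w p.i., and H2-D1 by -0.15 (adjusted p = 0.0748), none of which passed the test by limma. H2-K1 and B2m did not pass the test at any time point, and their intervals at 6 w p.i. were -0.14 to 0.18 and -0.21 to 0.09. None of the 5 leukocyte markers passed at any time point by limma, with group means of 1.11 to 1.24 in Py230 tumors and 1.05 to 1.28 in C57BL/6 glands, while all 6 adipocyte markers were lower in the tumors at 6 w p.i. Other marker means also stood apart at 6 w p.i. They were 0.74 in Py230 tumors and 2.10 in C57BL/6 glands for skeletal muscle and 1.74 and 2.33 for fibroblasts. For neutrophils they were -0.56 and -1.23. The part of these cells in the Psmb8 and H2-Q10 differences was not tested.

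**Figure D3:**
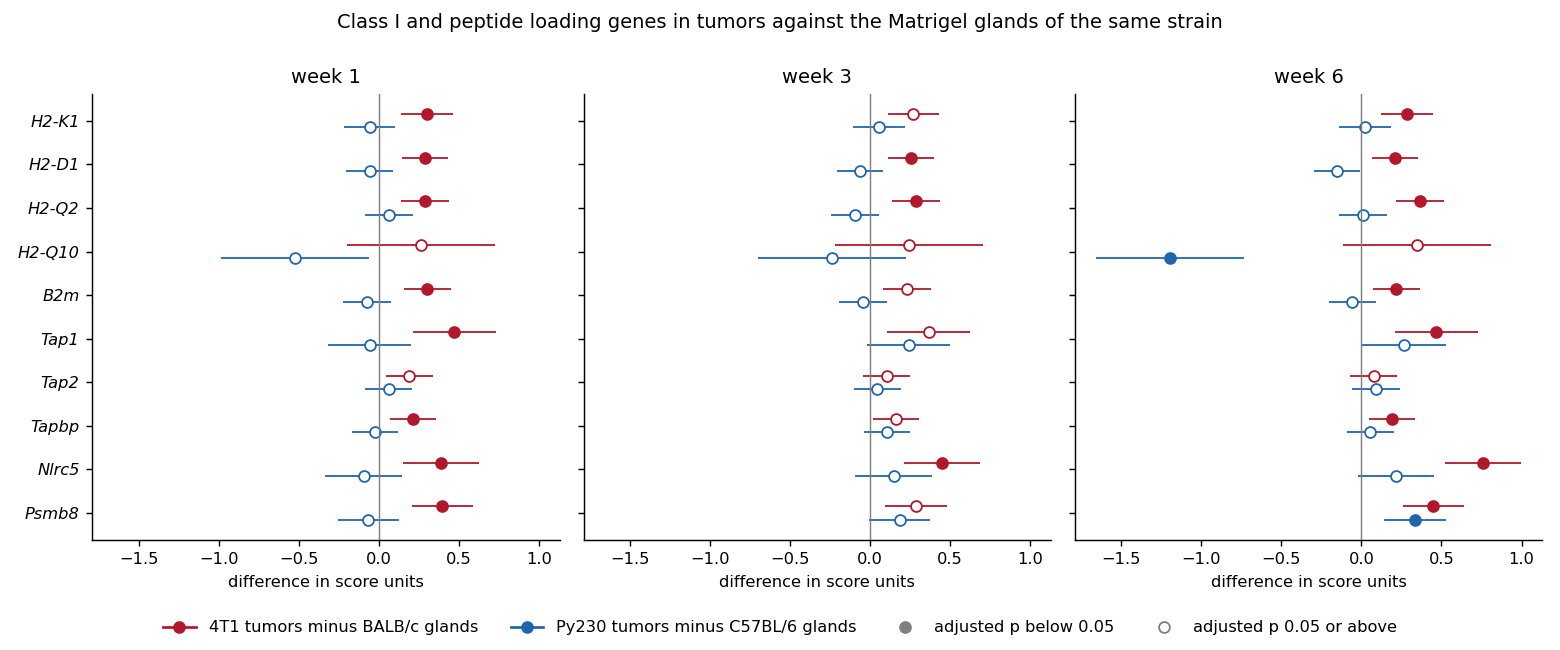
Difference of 4T1 tumors from BALB/c glands (red) and of Py230 tumors from C57BL/6 glands (blue) at 1, 3 and 6 weeks for the 10 genes. The x axis is in score units, bars are 95% confidence intervals, and filled points have an adjusted p below 0.05. The 4T1 differences lie between 0.08 and 0.76 throughout, and the Py230 difference of H2-Q10 reaches -1.19 at week 6.

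Whether the tumors differed by more than the glands of their strains was tested as the 4T1 difference minus the Py230 difference, each from its own glands. All 10 values were positive in weeks 1 and 3 and 9 of 10 at 6 w p.i. At 1 w p.i. 0 genes passed the test by limma (9 of 10 at an unadjusted p under 0.05), beside 0.305% of all genes, and with library weights 8 did, beside 25.2% of all genes. In week 3 H2-D1 and H2-Q2 passed, beside 2.64% of all genes that were higher and 9.15% in either direction. In week 6 H2-Q10, Nlrc5, H2-D1, H2-Q2 and B2m passed, beside 14.4% and 25.5%.

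H2-Q10 gave the largest value, 1.54 (SE 0.32, adjusted p = 0.000653) at 6 w p.i., where its 4T1 tumors had not passed the test against their glands and its Py230 tumors were lower than theirs. Nlrc5 gave 0.54 (SE 0.16, adjusted p = 0.0149), H2-D1 0.36 (SE 0.0999, adjusted p = 0.00780), H2-Q2 0.35 (SE 0.10, adjusted p = 0.0121) and B2m 0.27 (SE 0.10, adjusted p = 0.0494, all by limma). H2-Q10, Nlrc5 and H2-Q2 passed in all 20 alternatives and H2-D1 in 19, whereas B2m passed in 8. In week 3 H2-Q2 gave 0.38 (adjusted p = 0.0221) and passed in 16 of 20 alternatives, and H2-D1 gave 0.32 (adjusted p = 0.0441, limma) and passed in 7. The call of H2-Q2 in week 3 was lost without 4T1 replicate 1, Py230 replicate 1 or C57BL/6 replicate 3, and that of H2-D1 without any 1 of the 12 libraries but 4T1 replicate 2 and Py230 replicate 3. B2m in week 6 kept its call only without 4T1 replicate 3, Py230 replicate 3, BALB/c replicate 1 or C57BL/6 replicate 1 among the fits that left out a library. In week 6 the H2-Q2 gap was thus 1.08 between the tumors and 0.73 between the glands of the same week.

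Over time, Nlrc5 rose in 4T1 tumors from 1 to 6 w p.i. by 0.40 (SE 0.12, adjusted p = 0.00535 by limma), and its 3 tumors of 6 w p.i. lay above the 3 of 1 w p.i. It was the only one of the 10 genes to change, beside 48.8% of all genes, and it held in all 14 alternatives. In Py230 tumors 5 of the 10 genes changed, beside 39% of all genes. Psmb8 rose by 0.45 (SE 0.093, adjusted p = 0.000529), Nlrc5 by 0.40 (adjusted p = 0.00805), Tap1 by 0.38 (SE 0.13, adjusted p = 0.0194) and H2-Q2 by 0.32 (SE 0.073, adjusted p = 0.00106), whereas H2-Q10 fell by 0.60 (SE 0.23, adjusted p = 0.0364, all by limma). The call of Nlrc5 was lost without Py230 week 1 replicate 1, that of Tap1 also without week 6 replicate 1 or 3, and that of H2-Q10 without week 1 replicate 2 or 3 or week 6 replicate 1 or 2, whereas Psmb8 and H2-Q2 held in all 14 alternatives. Cell type markers moved over the same weeks. In 4T1 tumors all 5 markers of lactating epithelium fell (group means of 2.12 and -0.68 at 1 and 6 w p.i.), as did all 6 adipocyte markers (1.37 and -0.10) and 3 of 5 leukocyte markers (1.68 and 1.31), while 4 of 5 neutrophil markers rose (-0.56 and 0.26). In Py230 tumors all 6 adipocyte markers fell (1.89 and 0.40) and 4 of 5 of lactating epithelium (1.46 and 0.57), while of 9 T and NK cell markers 4 rose and 1 fell. The part of these cells in the changes over time was not tested.

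Psmb8 followed different courses in 4T1 and Py230 tumors. Py230 scores went from 0.85, 1.05 and 1.01 at 1 w p.i. through 1.31, 1.20 and 0.96 at 3 w p.i. to 1.47, 1.28 and 1.51 at 6 w p.i., whereas 4T1 scores were 1.39, 1.25 and 1.38, then 1.58, 1.11 and 1.18, then 1.45, 1.37 and 1.40. The tumors were apart at 1 w p.i., and in weeks 3 and 6 their ranges overlapped. The change of the difference between the tumors was -0.38 (SE 0.13, adjusted p = 0.0315 by limma, beside 27.4% of all genes that passed this test), and it was lost in 7 of 20 alternatives, which left out 4T1 week 1 replicate 1 or 3, 4T1 week 6 replicate 2 or 3, Py230 week 1 replicate 1, or Py230 week 6 replicate 1 or 3. For Tap1 the same change was -0.35 (adjusted p = 0.152) and for H2-Q10 0.69 (adjusted p = 0.108, limma), neither of which passed the test.

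The Matrigel glands changed little. In BALB/c glands 0 of the 10 genes passed the test between 1 and 6 w p.i. by limma (0 at an unadjusted p under 0.05), beside 0.0831% of all genes, and no difference was above 0.04. In C57BL/6 glands H2-Q2 rose by 0.38 (SE 0.073, adjusted p = 0.0187 by limma), beside 0.194% of all genes, and its call was lost in 4 of 14 alternatives (these 6 glands alone, and without week 1 replicate 1 or 2 or week 6 replicate 1). H2-Q2 thus moved upward in the C57BL/6 glands without tumor cells as well as in Py230 tumors.

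Distances between heavy chains within a library varied less among BALB/c than among C57BL/6 libraries. H2-Q2 minus H2-D1 was -1.68 (SD 0.058, n = 18) in BALB/c and -2.64 (SD 0.17, n = 18) in C57BL/6 libraries. H2-Q10 minus H2-D1 was -1.50 (SD 0.057) in BALB/c libraries, whether tumor or gland, with values from -1.59 to -1.36, and -1.87 (SD 0.48) in C57BL/6 libraries, with values from -2.64 to -1.19. The spread of H2-Q10 between libraries of 1 group was 0.40 in C57BL/6 and 0.10 in BALB/c groups (pooled SD within groups). H2-K1 minus H2-D1 was -0.24 (SD 0.028) in BALB/c and -0.11 (SD 0.091) in C57BL/6 libraries, where Py230 tumors at 6 w p.i. reached 0.03. Both genes of a distance were measured in the same library, whose part in these values was not tested. The values of these heavy chains are uncertain in BALB/c libraries, as given above. The part of mapping BALB/c reads to the C57BL/6-based mm10 in these distances was not tested either.

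**Figure D4:**
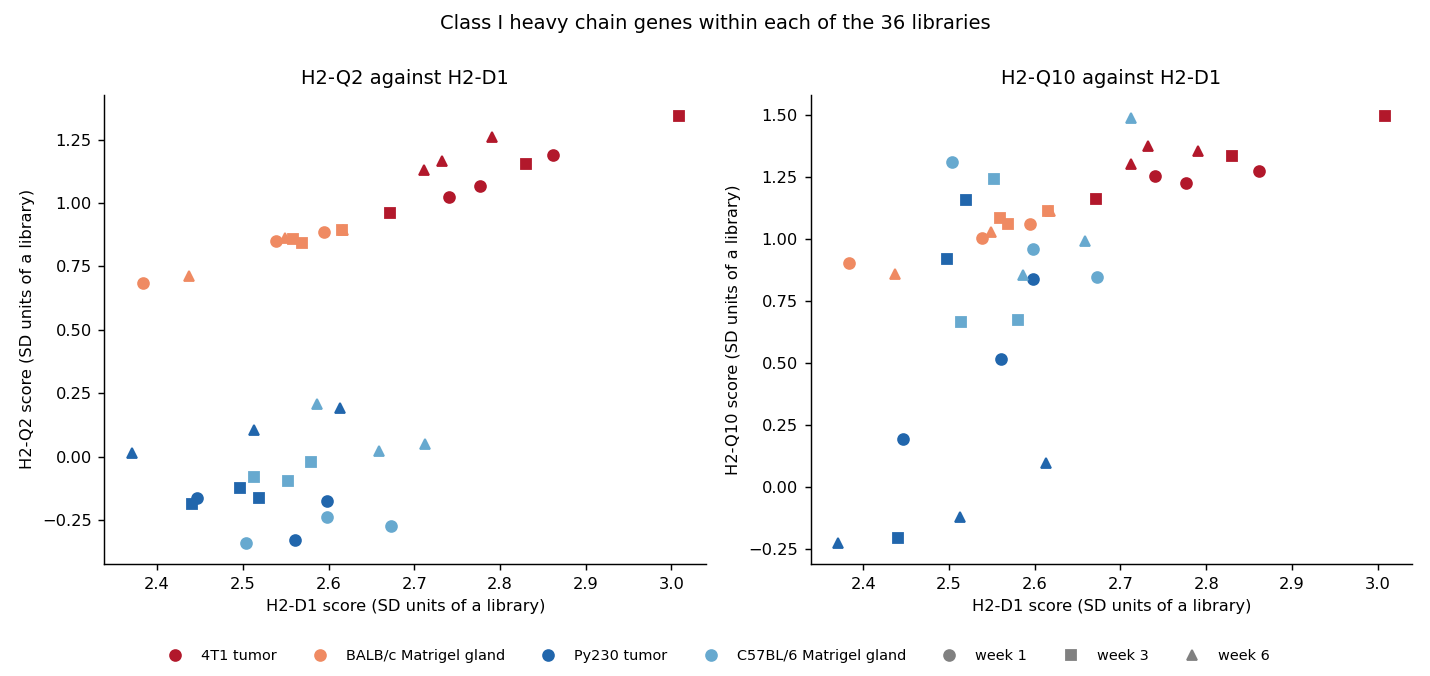
H2-Q2 (left) and H2-Q10 (right) against H2-D1 within each of the 36 libraries, on the score scale. Each point is 1 library, colors give the tumor or gland and shapes the week. BALB/c libraries (red and orange) form 1 band in both panels, while in C57BL/6 libraries (blue) H2-Q2 reaches at most 0.21 and H2-Q10 spreads from -0.22 to 1.49.

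Other genes of the route were taken from lists of 14 heavy chains, 15 genes of peptide supply and loading, 17 of class I transcription and interferon-γ signaling, and 17 interferon-induced genes outside antigen presentation. Between 4T1 and Py230 tumors, 8, 9 and 8 of the 14 heavy chains were higher in 4T1 in weeks 1, 3 and 6, beside the 11%, 11.9% and 24.1% of all genes given above, and 0, 0 and 2 were lower, beside 8.43%, 18.5% and 16.7%. H2-K2 led at each time point, by 1.05, 1.21 and 1.48 (SE 0.083), ahead of H2-Q1 with 0.95, 0.99 and 1.06 (SE 0.074) and H2-Bl with 0.94, 0.92 and 0.91 (SE 0.087). H2-K2, H2-Q1 and H2-Bl were also the 3 heavy chains of this list that stood highest in BALB/c over C57BL/6 glands. The effect of the C57BL/6-based reference on the values of these heavy chains was not tested. At 6 w p.i. H2-K2 was lower in Py230 tumors than in their glands by -0.44 (SE 0.083, adjusted p = 0.000116 by limma), and H2-M2 was lower in 4T1 than in Py230 tumors by -1.32 (SE 0.24).

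Most genes of the peptide supply and loading list were higher in both tumors at 6 w p.i. The list also holds the constitutive proteasome subunits Psmb5, Psmb6 and Psmb7 and general protein folding genes, among them Calr, Canx and Hspa5. Its counts are therefore not particular to antigen presentation. Of 15, 13 were higher in 4T1 tumors than in BALB/c glands at 6 w p.i. and 14 higher in Py230 tumors than in C57BL/6 glands, beside 38.6% and 28.8% of all genes, with medians of 0.30 and 0.22 beside 0.07 and 0.03 over all genes. In week 1, 6 were higher in 4T1 tumors (9.91% of all genes) and 0 in Py230 tumors. At 3 w p.i. it was 3 in each, beside 2.1% of all genes in 4T1 and 12.8% in Py230 tumors. Psmb9 and Psmb10, the partners of Psmb8 in the immunoproteasome, named after their values were seen, were among them at 6 w p.i., with 0.43 and 0.47 in 4T1 and 0.27 and 0.28 in Py230 tumors. Directly between the tumors, 6 of 15 were higher and 1 lower in 4T1 at 1 w p.i., 0 higher and 3 lower at 3 w p.i., and 4 higher and 3 lower at 6 w p.i., beside 19.4%, 30.3% and 40.8% of all genes in either direction.

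Interferon-induced genes were lower in BALB/c than in C57BL/6 glands for 10 of 17, beside 5.49% of all genes, with a median of -0.26 beside 0.01 over all genes, and 0 were higher. Irgm2, an interferon-γ-induced GTPase, differed by -0.34 (SE 0.063, adjusted p = 0.000314 by limma) without overlap. In 4T1 tumors at 6 w p.i., 14 of 17 were higher than in BALB/c glands, beside 38.6% of all genes, led by the chemokine Cxcl10 with 1.09 (SE 0.24). In Py230 tumors 7 of 17 were higher than in C57BL/6 glands and 0 lower, beside 28.8% higher and 47.6% in either direction, led by Cxcl10 with 0.81 (SE 0.24). Between the tumors, 2, 1 and 0 of 17 were higher in 4T1 and 1, 4 and 2 lower in weeks 1, 3 and 6. These counts stood beside 19.4%, 30.3% and 40.8% of all genes in either direction. In weeks 1 and 3 they lay close to the share of all genes, and in week 6 below it. Among the 17, Ifit3, an antiviral protein induced by type I interferon, was lower in 4T1, with differences of -0.66, -0.71 and -0.56 (SE 0.16 each) in weeks 1, 3 and 6. Of 14 alternatives its call was lost in 2 at 1 w p.i. (the 6 tumors alone, without 4T1 replicate 3) and in 1 at 6 w p.i. (without Py230 replicate 3).

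Of the 17 genes of class I transcription and interferon-γ signaling, 0 were higher and 2 lower in BALB/c glands, close to the 11% of all genes in either direction. At 6 w p.i. 9 were higher and 1 lower in 4T1 tumors than in their glands, close to the 60.1% of all genes that passed there, among the higher the cytokine gene Ifng with 0.33 (adjusted p = 0.00835) and its target Irf1 with 0.36 (adjusted p = 0.00108, limma), 2 genes named after their values were seen. In Py230 tumors 3 were higher and 1 lower, a smaller share than the 47.6% of all genes, the lower one being the receptor subunit Ifngr1 with -0.29 (SE 0.047, adjusted p = 2.40e-05 by limma). Between the tumors 3, 4 and 2 were higher in 4T1 and 0, 2 and 2 lower in weeks 1, 3 and 6, beside 19.4%, 30.3% and 40.8% of all genes in either direction. Ciita, the activator of class II genes and a relative of Nlrc5, was higher in 4T1 tumors than in BALB/c glands by 0.72 (SE 0.18) at 1 w p.i., a call lost in 4 of 14 alternatives (these 6 libraries alone, and without 4T1 replicate 1 or 3 or BALB/c replicate 2).

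The genes most like each of the 10 in pattern were found by Pearson's r over the 12 group means, a description over few points that share libraries. Tap1 was most like Ifi47 (0.988), Psmb8 like Psmb9 (0.986), Tapbp like Ccr4 (0.980), H2-K1 like Gbp8 (0.977), Nlrc5 like Klra2 (0.976) and Tap2 like Mospd2 (0.975). H2-Q2 was most like H2-Bl (0.991), with Gm8909 and H2-T-ps next, all on chromosome 17. H2-D1 was most like Inpp5b (0.969), B2m like Pqlc3 (0.953) and H2-Q10 like Ccng2 (0.948). Among the 10 genes themselves, H2-K1 went with Tapbp (0.961), B2m (0.936) and Tap1 (0.926), and Tap1 with Psmb8 (0.935), whereas H2-Q2 and H2-Q10 had values of 0.18 and 0.12 with H2-K1 and of 0.05 and -0.18 with Tap1.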

How the data were processed

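Total RNA of 36 samples (12 groups of 3, from the labels) had been sequenced by the authors as stranded TruSeq libraries (paired-end reads on a HiSeq4000), mapped to mm10 with STAR, counted with summariseOverlaps and analysed with DESeq2. Versions of these tools and the annotation are not given in the sources used here. The deposited expression table holds a standardized score per gene and library, with a mean of 0 and an SD of 1 in every library, so counts and depth are unknown and intervals cover only the spread between libraries, and how the authors made the scores is not given in the sources used here. The authors' mean normalized count over all libraries was also used, as a pooled value on its own scale, a score without an SD. The other deposited columns hold the authors' fold changes and p-values of their comparisons and were not used. Columns that could not be assigned to a sample numbered 0.

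Gene names came from the deposited names (16266 genes) and from GENCODE vM21 (5384 genes). Each comparison was a contrast in 1 limma fit (limma 3.58.1, R 4.3.3) with a mean for each of the 12 groups over 36 libraries, with a mean-variance trend and robust variance moderation, two-sided, and with Benjamini-Hochberg adjustment over 21650 genes. A gene passed at an adjusted p below 0.05. No filter on low values and no pseudocount was used. The fit was tested on simulated data. The test of tumors beyond strain was the difference of 2 such contrasts. Percentages beside counts are the shares of all genes that passed in the same comparison. Python 3.11.15, pandas 2.3.3 and matplotlib 3.10.9 were used for sequences, tables and plots.

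The 10 genes, the gene lists and the markers were chosen with earlier results of these data known, so counts over a list are descriptions. Of the lists, up to 3 genes in each direction were eligible to be named per comparison, those with the largest difference among genes that passed and did not overlap between groups. H2-Q6, H2-Q9, H2-T3 and H2-M10.1 were not analysed here. Alternatives were a fit of the compared groups alone, median and MAD scaling, quantile and cyclic loess normalization, a fit without the genes whose mean score was below the median, a fit without trend and robust moderation, library weights (estimated gene by gene after the planned estimate did not converge, a choice made after seeing the data), replicate number as a block, and leaving out each library. Protein sequences were not used here.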

Additional observations from a re-analysis of the deposited data

Results flagged for a closer look

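The values below were singled out because they passed a direct test of a difference between the 4T1 and Py230 systems (limma, adjusted over all genes). Except for Psmb8, each is the 4T1 difference from BALB/c glands minus the Py230 difference from C57BL/6 glands, in score units, and 3 libraries stood behind each group.

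Among the 10 genes at 3 w p.i., it was 0.32 for H2-D1 (SE 0.0999, adjusted p = 0.0441) and 0.38 for H2-Q2 (SE 0.10, adjusted p = 0.0221). At 6 w p.i. it was 0.36 for H2-D1 (adjusted p = 0.00780), 0.35 for H2-Q2 (adjusted p = 0.0121), 1.54 for H2-Q10 (adjusted p = 0.000653), 0.27 for B2m (adjusted p = 0.0494) and 0.54 for Nlrc5 (adjusted p = 0.0149). For Psmb8 the value is the change of the 4T1 against Py230 difference from 1 to 6 w p.i., without glands, which was -0.38 (adjusted p = 0.0315). Some of these calls were not secure. H2-D1 at 3 w p.i. passed in 7 of 20 alternatives and B2m at 6 w p.i. in 8 of 20. The calls of H2-Q2 at 3 w p.i. and of Psmb8 were also lost in some alternatives, as given above.

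Among the other genes of the route at 3 w p.i., it was 0.30 for Ifngr1 (adjusted p = 0.00644) and -0.22 for Rfxank (adjusted p = 0.0330), a subunit of the RFX complex. The call of Ifngr1 was lost in 1 of 20 alternatives (the compared groups alone). Rfxank passed in 8 of 19, and its call was lost in the compared groups alone, with loess scaling and without any 1 of the 12 libraries but replicate 3 of 4T1 tumors, Py230 tumors or BALB/c glands. At 6 w p.i. it was 0.79 for H2-K2 (adjusted p = 1.27e-05), 0.68 for the interferon receptor kinase Jak2 (adjusted p = 7.07e-05), 0.51 for H2-Q8 (adjusted p = 0.00353), -0.17 for the constitutive proteasome subunit Psmb6 (adjusted p = 0.00598) and -0.15 for Rfxap (adjusted p = 0.0282), another RFX subunit, which passed in 13 of 20 alternatives. The call of Rfxap was lost with MAD or quantile scaling and without 4T1 replicate 1 or 2, Py230 replicate 1, BALB/c replicate 3 or C57BL/6 replicate 3.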

How the results depend on the processing

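Values here count how many of the 10 genes passed the test in a comparison. In a fit of the compared groups alone, they were 1 in place of 3 for 4T1 against Py230 tumors at 3 w p.i., 0 in place of 8 and 0 in place of 3 for 4T1 tumors against BALB/c glands in weeks 1 and 3, 0 in place of 2 beyond strain at 3 w p.i., 0 in place of 1 for C57BL/6 glands over time and 3 in place of 1 for the change of the tumor difference over time. With MAD scaling they were 4 in place of 8 for 4T1 tumors against glands at 6 w p.i., 4 in place of 2 for Py230 tumors against glands at 6 w p.i., 3 in place of 5 beyond strain at 6 w p.i., 3 in place of 1 for 4T1 tumors over time and 2 in place of 1 for the change of the tumor difference. Quantile normalization gave 1 in place of 2 beyond strain at 3 w p.i. (loess also 1), 2 in place of 1 for 4T1 and 8 in place of 5 for Py230 tumors over time, and 2 in place of 1 for the change of the tumor difference. Library weights gave 9 in place of 4 for 4T1 against Py230 tumors at 1 w p.i., 1 in place of 3 for 4T1 tumors against glands at 3 w p.i., 4 in place of 0 and 6 in place of 2 for Py230 tumors against glands at 3 and 6 w p.i., 8 in place of 0 beyond strain at 1 w p.i., 8 in place of 5 for Py230 tumors over time and 6 in place of 1 for the change of the tumor difference. The causes were not tested.

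Without 1 library, the counts ranged from 3 to 5 for strain; 1 to 4, 2 to 5 and 2 to 3 for 4T1 against Py230 tumors in weeks 1, 3 and 6; 0 to 8, 0 to 7 and 5 to 8 for 4T1 tumors against glands; 0 to 0, 0 to 1 and 2 to 3 for Py230 tumors against glands; 0 to 3, 0 to 3 and 4 to 6 beyond strain. Over time they ranged from 1 to 1 in 4T1 tumors, 3 to 6 in Py230 tumors, 0 to 0 in BALB/c glands and 0 to 1 in C57BL/6 glands, and from 0 to 1 for the change of the tumor difference. Of 50 differences of the 10 genes that passed the test, 1 changed sign in an alternative: H2-D1 in 4T1 tumors against glands at 6 w p.i. was -0.0139 with MAD scaling. Of 130 that had not passed, 53 changed sign in some alternative, and 1 of these passed with the other sign: Tap1 between the tumors at 3 w p.i. was -0.19 with library weights.

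With the replicate number as a block, 5 genes passed in place of 3 for 4T1 tumors against glands at 3 w p.i., 9 in place of 8 at 1 w p.i. and 5 in place of 4 for strain, and the counts of the other comparisons were as without it. Libraries of different groups that share a number and a week form 54 pairs, of which 17 deviated together (correlation above 0.1), so the numbers were not taken as pairs. Since the table holds scores without counts, depth behind a value is unknown.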
